A study of Homo sapiens with 12 samples.

Results

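The 10 genes described here are the transcriptional partners YAP1, WWTR1, TEAD1 and TEAD4, the kinase LATS2, the pathway regulators AMOTL2 and AJUBA, and the target genes CYR61, CTGF and ANKRD1. They were chosen by name, from knowledge of the pathway and with earlier results of these data known. Counts of them against all genes therefore describe a set that was not chosen blind to the data. All 10 were present among the 58735 genes of the deposited table. The samples are bulk RNA libraries, 12 in all and 3 in each of 4 groups, of KYSE180 and KYSE150, a pair of established cell lines of human oesophageal squamous carcinoma. KYSE180 was sampled as native wild-type cells and with CDCA7 overexpression. KYSE150 was sampled as native wild-type cells and with shCDCA7, a short hairpin RNA that targets CDCA7, a nuclear protein linked to chromatin remodelling. The controls are labelled native, and the labels name no empty vector and no scrambled hairpin, nor how many clones or hairpins were used. All cells were grown in serum-containing medium and harvested with trypsin. Nothing in the labels tells whether the 3 libraries of a group were grown separately, so p-values measure only the spread between these libraries, which may be technical. In bulk RNA, fewer cells that carry a transcript and less of it per cell cannot be told apart.

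The Hippo pathway is a kinase cascade that senses cell contact, shape and tension. Its last kinases, LATS1 and LATS2, phosphorylate the coactivators YAP1 and WWTR1 (also called TAZ) and hold them in the cytoplasm. When they are not phosphorylated, both enter the nucleus, bind TEAD proteins on DNA and switch on genes such as CYR61 (now named CCN1) and CTGF (now CCN2), which encode secreted matricellular proteins, and ANKRD1, an ankyrin repeat protein. LATS2 and AMOTL2 restrain YAP1 and are themselves known targets, while AJUBA, a LIM domain protein, restrains LATS kinases. YAP1 is known as a driver of growth in squamous carcinomas. RNA levels do not show phosphorylation or the place of a protein in the cell.

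On GRCh38 the genes lie at 10 separate places. YAP1 lies on chromosome 11 from 102110461 to 102233423 and TEAD1 on the same chromosome from 12674591 to 12944483, both on the plus strand. WWTR1 is on chromosome 3 from 149517235 to 149736714, and AMOTL2 on the same chromosome from 134355874 to 134375479, both on the minus strand. TEAD4 spans 2959330 to 3040673 on chromosome 12 (plus) and LATS2 20973032 to 21061547 on chromosome 13 (minus). CYR61 covers 85580761 to 85583962 on chromosome 1 (plus), CTGF 131948176 to 131951373 on chromosome 6 (minus), ANKRD1 90912096 to 90921276 on chromosome 10 (minus) and AJUBA 22971174 to 22982642 on chromosome 14 (minus). The table counts each as a whole protein-coding gene. Of the genes that overlap them, WWTR1-AS1 on the opposite strand had the most reads, between 0 and 19 per library; the sources used here do not state whether reads were counted by strand.

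TEAD proteins recognise the letters GGAATG, read as CATTCC on the other strand. RefSeq promoter windows (GRCh38.p14, 250 bases before to 50 after the start) were found for 7 of the 10 genes. No window was found for CYR61, TEAD1 or TEAD4, so the motif was not searched for in these genes. The windows are shown for CTGF and ANKRD1, where they hold more than 1 copy. The windows of YAP1 and LATS2, and 1 of the 2 of AMOTL2 and of AJUBA, hold 1 copy each. Of these, only those of LATS2 and AMOTL2 are shown. Each is written 5′ to 3′ along the gene, with GGAATG or CATTCC in capitals, and in ANKRD1 also TGANTCA, a motif of AP-1 factors. The windows are chr6:131951323-131951622 for CTGF, chr10:90921038-90921337 for ANKRD1, chr13:21061537-21061836 for LATS2 and chr3:134374398-134374697 for AMOTL2, all on the minus strand.
CTGF: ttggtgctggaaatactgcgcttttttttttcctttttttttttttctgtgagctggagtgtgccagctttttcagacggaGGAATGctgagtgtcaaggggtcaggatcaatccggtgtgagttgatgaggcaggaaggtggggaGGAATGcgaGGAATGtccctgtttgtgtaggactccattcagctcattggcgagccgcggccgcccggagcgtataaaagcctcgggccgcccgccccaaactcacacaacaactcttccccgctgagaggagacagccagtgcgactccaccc
ANKRD1: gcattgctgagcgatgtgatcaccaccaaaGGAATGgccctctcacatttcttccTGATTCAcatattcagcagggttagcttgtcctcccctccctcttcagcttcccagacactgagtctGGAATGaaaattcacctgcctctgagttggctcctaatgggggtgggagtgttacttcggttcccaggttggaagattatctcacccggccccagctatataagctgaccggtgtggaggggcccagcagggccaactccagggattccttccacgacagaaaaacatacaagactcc
LATS2: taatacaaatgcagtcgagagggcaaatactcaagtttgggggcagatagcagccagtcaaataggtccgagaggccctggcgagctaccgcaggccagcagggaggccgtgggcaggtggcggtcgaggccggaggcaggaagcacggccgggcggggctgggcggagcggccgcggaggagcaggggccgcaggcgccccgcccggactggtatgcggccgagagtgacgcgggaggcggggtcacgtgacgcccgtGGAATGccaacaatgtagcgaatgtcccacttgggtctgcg
AMOTL2: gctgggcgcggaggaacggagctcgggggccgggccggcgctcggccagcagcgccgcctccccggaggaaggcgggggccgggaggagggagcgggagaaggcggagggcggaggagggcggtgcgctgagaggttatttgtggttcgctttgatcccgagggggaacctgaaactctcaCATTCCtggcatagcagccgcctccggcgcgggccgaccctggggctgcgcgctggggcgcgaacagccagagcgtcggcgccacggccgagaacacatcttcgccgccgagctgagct

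The CTGF window held 3 copies, beginning 169, 104 and 95 bases before the start. The ANKRD1 window held 2 copies, beginning 220 and 128 bases before it, with TGANTCA 195 bases before it. LATS2 had its copy 10 bases after the start and AMOTL2, in 1 of its 2 windows, 69 bases before it, as CATTCC; the other AMOTL2 window had none. YAP1 had 1 copy, 162 bases before the start. AJUBA had 1 copy in 1 of its 2 windows, 59 bases before the start, and neither window of WWTR1 had one. Among the 35116 RefSeq windows of this length, 14.03% held at least 1 copy on either strand, 1.37% at least 2 and 0.128% at least 3, and 7.71% held TGANTCA, also searched on both strands. The motifs do not overlap each other in these 4 windows. A match describes the letters and is not evidence of binding.

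Libraries held 16.3 M to 19.6 M reads, and levels are the deposited FPKM (fragments per kilobase of gene length, scaled by library size). The labels were first checked on CDCA7. It stood at 24.00, 18.2 and 17.4 FPKM in KYSE180 controls and at 44.6, 59.1 and 57.9 with overexpression (log2 change 1.40, SE 0.17, adjusted p = 0.00947), and at 27.4, 25.6 and 25.6 in KYSE150 controls and 9.24, 10.1 and 8.83 with the hairpin (log2 change -1.39, SE 0.09, adjusted p = 0.00166). Here and below, changes are differences of log2(FPKM + 1) from limma-trend, two-sided, with adjusted p over all genes tested and a call at an adjusted p under 0.05; the added 1 understates changes of genes near or under 1 FPKM. The overexpression call was lost in 2 of 16 alternative analyses. The shCDCA7 replicate 2 stood apart: mitochondrial genes took 11.2% of its reads, against 5.20% and 5.73% in the other shCDCA7 libraries and 4.03% to 4.15% in their controls, so changes in KYSE150 are given with and without it. In KYSE180 the mitochondrial share was 4.76% to 6.38% in controls and 7.97% to 8.65% with overexpression. The 9 squamous markers were TP63, SOX2, KRT5, KRT14, KRT6A, DSG3, PERP, CDH1 and EPCAM. They summed to 490.0 to 507 FPKM in KYSE150 controls and 2046 to 3622 in KYSE180 controls. SOX2, at 0.0186, 0.205 and 0.139 FPKM in KYSE150 controls, was the marker near 0 in that line. Markers of fibroblasts (6 genes), leukocytes (6) and endothelial cells (5) summed to at most 5.50, 0.819 and 1.31 FPKM in any library, and LYZ, a marker of myeloid cells, was at 0 in all 12.

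Among the 10 genes, the native lines differed most in CYR61. It was 1 of the most abundant transcripts of KYSE150, ranked 44 of 58735 genes by mean FPKM, and ranked 2991 in KYSE180. Its level was 539.8, 470.2 and 505 FPKM in KYSE150 controls and 13.9, 8.44 and 25.2 in KYSE180 controls, a 31.9-fold higher mean in KYSE150 with no overlap (log2 difference KYSE180 minus KYSE150 -5.03, SE 0.29, adjusted p = 4.38e-08). CTGF was also higher in KYSE150, at 10.5, 11.1 and 13.1 FPKM against 1.67, 3.91 and 5.77 (-1.49, adjusted p = 8.82e-04). Both matricellular genes were thus lower in KYSE180, and CTGF varied more among the KYSE180 controls than among those of KYSE150. ANKRD1 was near the floor in both lines, at 0.402, 0.234 and 0.177 FPKM in KYSE150 and 0.118, 0.218 and 0.103 in KYSE180, and its difference did not pass (adjusted p = 0.144).

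Of the coactivators, WWTR1 differed between the native lines, while YAP1 did not pass the test. YAP1 stood at 32.9, 33.6 and 33.9 FPKM in KYSE150 controls and 31.2, 26.9 and 28.8 in KYSE180 controls (log2 difference -0.20, 95% interval -0.40 to -0.01, adjusted p = 0.0700). WWTR1 was higher in KYSE180, at 11.4, 11.8 and 13.03 FPKM against 6.44, 6.27 and 5.91 (0.86, adjusted p = 6.30e-05). It was the 1 gene of the 10 called higher there. TEAD1, a DNA-binding partner, was at 20.95, 19.5 and 19.1 FPKM in KYSE150 and 5.85, 6.83 and 5.04 in KYSE180 (-1.60, adjusted p = 2.50e-05). TEAD4 was at 26.5, 26.1 and 25.7 and 21.4, 22.6 and 16.2 FPKM (-0.38, adjusted p = 0.0237), a call held in 8 of 14 alternatives. The negative regulators LATS2 and AMOTL2 were lower in KYSE180 as well: LATS2 had 10.95, 10.6 and 10.2 FPKM in KYSE150 and 3.80, 3.51 and 5.19 in KYSE180 (-1.17, adjusted p = 2.43e-05). AMOTL2 had 34.1, 35.00 and 33.97 and 13.9, 17.4 and 18.4 FPKM (-1.02, adjusted p = 3.15e-05). AJUBA, at 50.1, 51.4 and 51.99 and 66.8, 69.6 and 54.9 FPKM, did not pass (adjusted p = 0.159).

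In all, 1 of the 10 genes was called higher and 6 lower in KYSE180, where 33.4% and 24.6% of the 17088 genes tested were called (58% in either direction). The ranges of the control groups did not overlap for 2 of the 10 higher and 7 lower in KYSE180, where 39.4% and 31.8% of all tested genes did so (71.3% in either direction). Without 1 control library at a time, 1 was higher and 5 to 7 were lower, where 8591 to 9689 of all genes were called. Upper-quartile scaling shifted the median of all genes by -0.15 in this comparison and took the share of calls that were higher from 57.6% to 47.8%. By mean FPKM, per gene length, the order in KYSE150 controls was CYR61, AJUBA, AMOTL2, YAP1, TEAD4, TEAD1, CTGF, LATS2, WWTR1 and ANKRD1, and of these neighbours only CTGF and LATS2 overlapped in range. In KYSE180 controls it was AJUBA, YAP1, TEAD4, AMOTL2, CYR61, WWTR1, TEAD1, LATS2, CTGF and ANKRD1. There the ranges of TEAD4, AMOTL2, CYR61 and WWTR1 overlapped each with the next, as did those of TEAD1, LATS2 and CTGF.

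**Figure D1:**
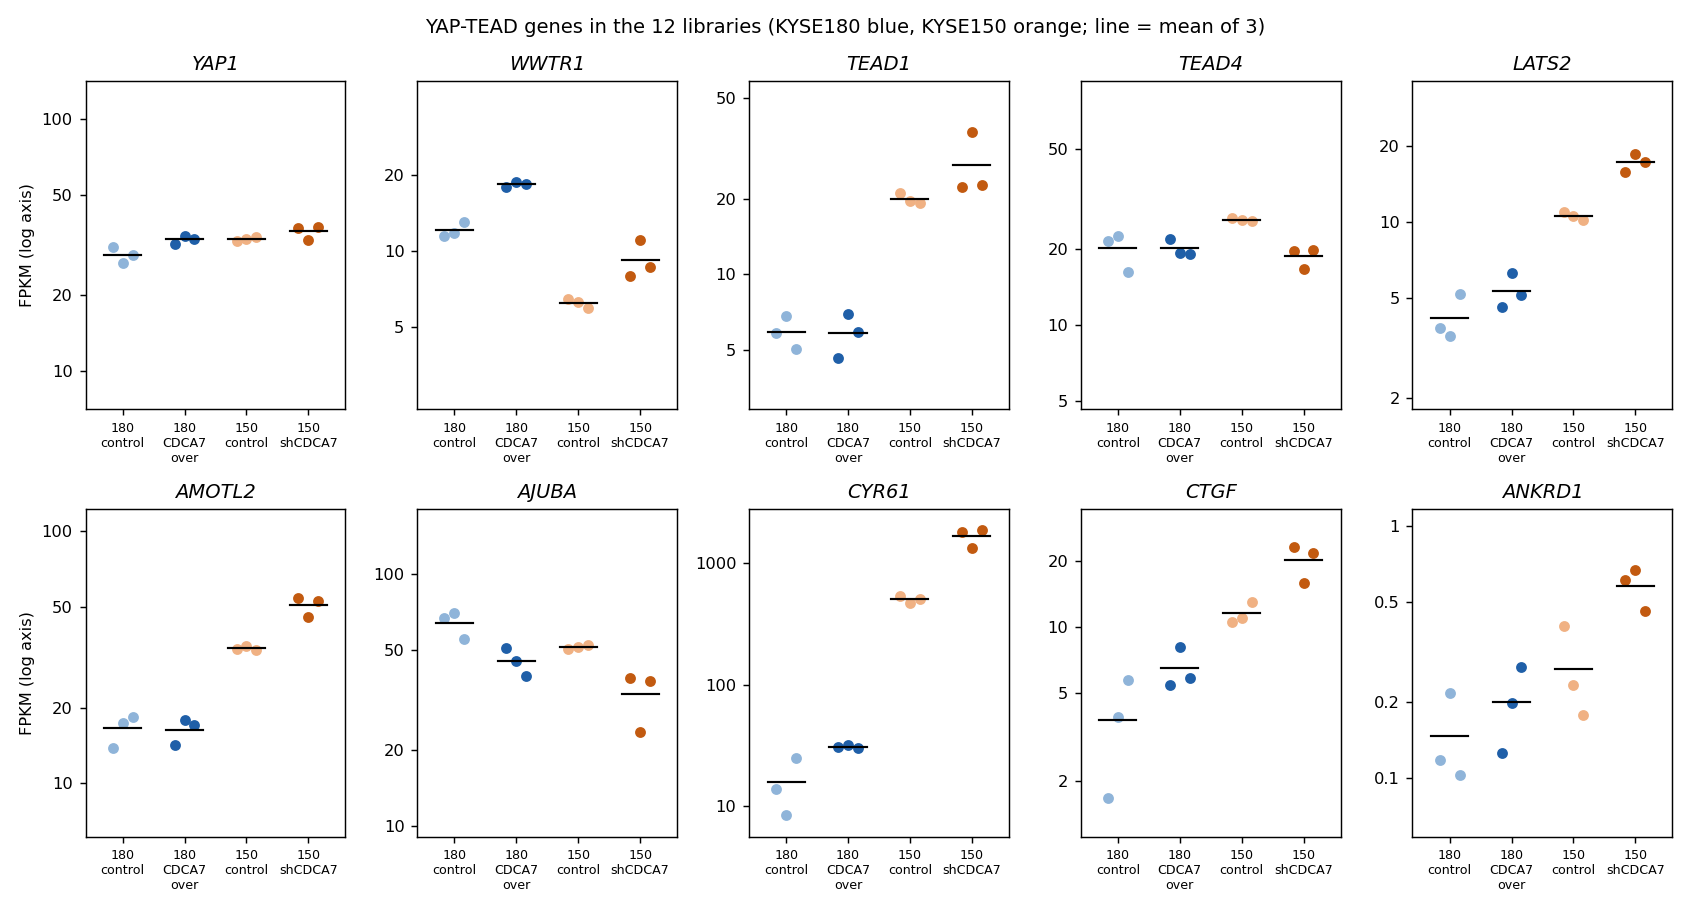
FPKM (log axis, scaled separately in each panel) of the 10 genes in each of the 12 libraries; points are libraries and the line is the mean of 3. CYR61 lies between 470.2 and 539.8 FPKM in KYSE150 controls and between 8.44 and 25.2 in KYSE180 controls, and in the shCDCA7 group replicate 2 is the middle point of the 3, high for TEAD1 and low for AJUBA.

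In KYSE150 with the hairpin against CDCA7, CYR61 rose 3.30-fold, and CTGF, LATS2, AMOTL2 and WWTR1 rose with it while TEAD4 fell. So 5 of the 10 genes were called higher and 1 lower, where 10% and 9.86% of the 14342 genes tested were called (19.9% in either direction). The median change of the 10 was 0.45, against 0.00 over all genes tested. The groups did not overlap for 7 of the 10 higher and 2 lower, where 25.3% and 22.5% of all tested genes did so (47.8% in either direction).

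Among the target genes, CYR61 and CTGF passed and ANKRD1 did not. CYR61 went from 539.8, 470.2 and 505 FPKM to 1809, 1326 and 1860.0 (log2 change 1.71, SE 0.17, adjusted p = 0.00313), and all 3 shCDCA7 libraries were above every control, replicate 2 least. It was called under all 16 alternatives and ranked 17 among all genes in this group. CTGF went from 10.5, 11.1 and 13.1 to 23.1, 15.9 and 21.8 FPKM (log2 change 0.75, SE 0.16, adjusted p = 0.0249), again with no overlap and with replicate 2 lowest. Its call held in 6 of 16 alternatives. ANKRD1 was 0.402, 0.234 and 0.177 FPKM in controls and 0.607, 0.665 and 0.460 with the hairpin, without overlap but short of the threshold (log2 change 0.31, SE 0.09, adjusted p = 0.0521). These rest on 17, 9 and 7 reads in controls and 19, 18 and 16 with the hairpin. Its mean FPKM was 2.13-fold higher, and it passed in 3 of 15 alternatives.

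The negative regulators that are also known targets rose. LATS2 had 10.95, 10.6 and 10.2 FPKM in controls and 15.8, 18.7 and 17.3 in shCDCA7 cells (log2 change 0.66, SE 0.10, adjusted p = 0.00836). AMOTL2, an angiomotin family scaffold that binds YAP1, had 34.1, 35.00 and 33.97 and 54.6, 45.9 and 52.9 FPKM (log2 change 0.56, SE 0.09, adjusted p = 0.0118). Neither overlapped between groups, and the calls held in 13 of 16 and 10 of 16 alternatives. AJUBA was at 50.1, 51.4 and 51.99 FPKM in controls and 38.7, 23.5 and 37.6 with the hairpin, below every control and lowest in replicate 2, and it did not pass (log2 change -0.64, SE 0.19, adjusted p = 0.0598).

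Among the coactivators and TEAD factors, WWTR1 rose from 6.44, 6.27 and 5.91 to 7.98, 11.05 and 8.61 FPKM, just past the threshold (log2 change 0.49, SE 0.13, adjusted p = 0.0481), and its call held in 6 of 16 alternatives. YAP1 was at 32.9, 33.6 and 33.9 FPKM in controls and 37.1, 33.1 and 37.2 in shCDCA7 cells, with overlap (0.09, 95% interval -0.11 to 0.30, adjusted p = 0.464). TEAD4 fell from 26.5, 26.1 and 25.7 to 19.6, 16.7 and 19.9 FPKM (log2 change -0.46, SE 0.10, adjusted p = 0.0214), a call held in 11 of 16 alternatives. TEAD1 was at 20.95, 19.5 and 19.1 FPKM in controls and 22.3, 36.8 and 22.6 with the hairpin, high in replicate 2 (log2 change 0.40, adjusted p = 0.199).

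Without shCDCA7 replicate 2, all 10 genes passed, 8 higher and 2 lower, and 7982 genes were called in place of 2854, so that 29.5% of all genes tested were called higher and 26.1% lower. The changes were then 1.86 for CYR61, 0.90 for CTGF, 0.27 for ANKRD1, 0.60 for LATS2, 0.63 for AMOTL2, -0.42 for AJUBA, 0.37 for WWTR1, 0.15 for YAP1, 0.17 for TEAD1 and -0.39 for TEAD4. The values of TEAD1, AJUBA and YAP1 moved by over 1.5 times. Without shCDCA7 replicate 1 or 3, 3 were called higher (CYR61, LATS2, AMOTL2) and 1 lower (TEAD4). Of the 14342 genes tested, 1792 and 1544 were then called. Without control replicate 1, 2 or 3 CYR61 was the 1 of the 10 that passed, where 569, 545 and 777 of all genes were called. Squamous markers moved in the same libraries: they summed to 699 to 823 FPKM with the hairpin against 490.0 to 507 in controls, and 5 of the 8 tested were called higher, against 10% of all genes tested. Without replicate 2, 7 of the 8 were called higher and 1 lower, against 29.5% and 26.1% of all genes tested. Their part in these results, and that of the mitochondrial share, was not tested.

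**Figure D2:**
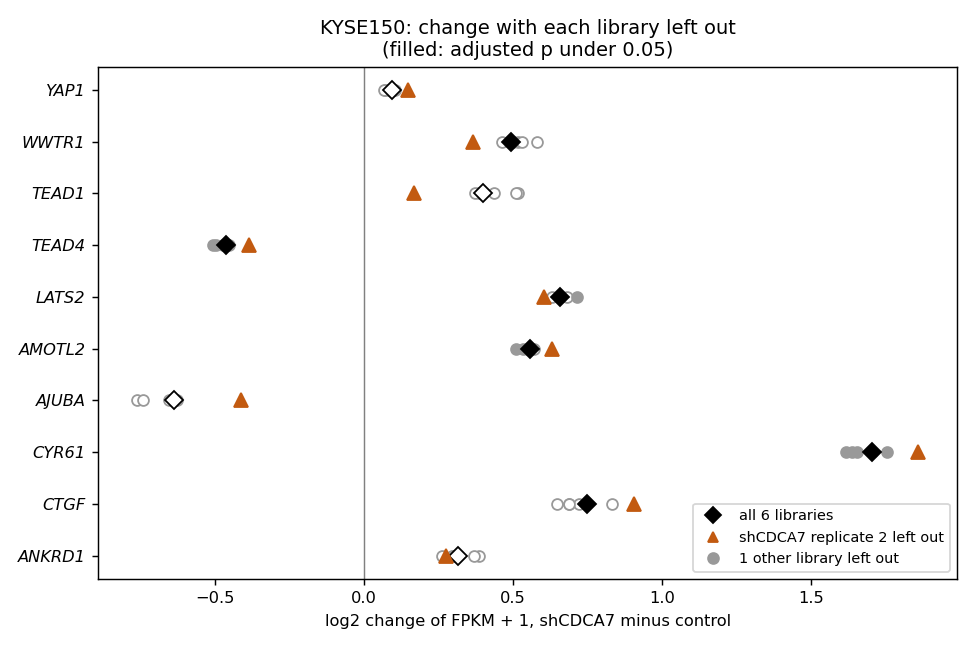
Change in log2(FPKM + 1) of the 10 genes in KYSE150, shCDCA7 minus control, with all 6 libraries (diamonds), without shCDCA7 replicate 2 (triangles) and without 1 of the other libraries (circles); filled symbols have an adjusted p under 0.05. CYR61 stays between 1.62 and 1.86, TEAD1 ranges from 0.17 to 0.52, and all 10 triangles are filled.

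The values are scaled by size factors; when libraries were scaled to their total reads instead, the median of all genes shifted by -0.22 in KYSE150 and the higher share of calls went from 50.5% to 20.5%, and in KYSE180 the shift was -0.10 and the share went from 51.2% to 29.1%. Relative to that shift, the KYSE150 changes were 1.66 for CYR61, 0.72 for CTGF, 0.63 for LATS2, 0.52 for AMOTL2, 0.47 for WWTR1 and -0.50 for TEAD4. Before subtracting it, 2 of the 10 were called higher (CYR61, LATS2) and 2 lower (TEAD4, AJUBA), and YAP1 turned to -0.16. In that fit 3792 of the 14342 genes tested were called.

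**Figure D3:**
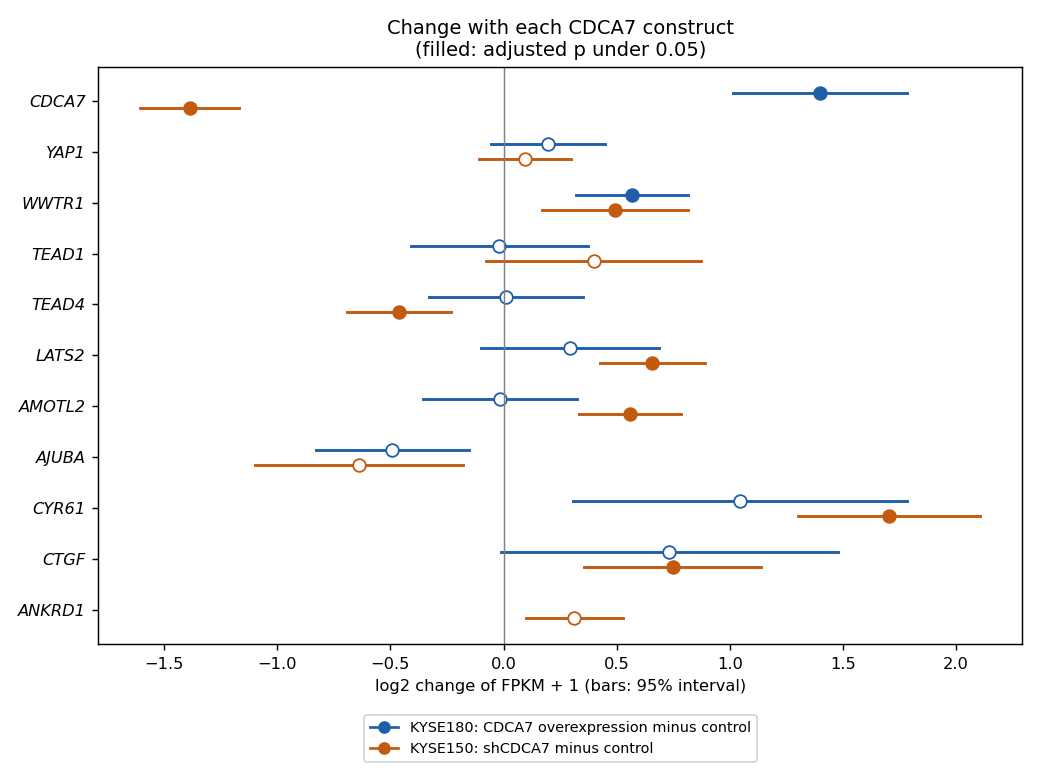
Change in log2(FPKM + 1) of CDCA7 and the 10 genes, manipulated minus control, in KYSE180 (overexpression, blue) and KYSE150 (hairpin, orange); bars are 95% intervals and filled points have an adjusted p under 0.05. Of the 10 genes, CYR61 has the highest point in both lines, at 1.05 and 1.71, and AJUBA the lowest, at -0.49 and -0.64; ANKRD1 was not tested in KYSE180.

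In KYSE180 with CDCA7 overexpression, WWTR1 rose 1.52-fold and was the 1 gene called among the 9 tested. Of all 15944 genes tested, 4.65% were called higher and 4.43% lower (9.08% in either direction). None of the 9 was called lower by limma-trend or by limma-voom, and 1 was lower at an unadjusted p under 0.05, as were 15.1% of all genes tested. WWTR1 stood at 11.4, 11.8 and 13.03 FPKM in controls and 17.9, 18.8 and 18.4 with overexpression, without overlap (log2 change 0.57, SE 0.11, adjusted p = 0.0274). The call held in 9 of 16 alternatives, over which the adjusted p ran from 0.00834 to 0.125. It was lost without control replicate 1 (adjusted p = 0.107) and without overexpression replicate 1, 2 or 3 (0.0784, 0.0846 and 0.125), while the change itself stayed within 0.53 to 0.62 over the 6 analyses that left out 1 library.

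CYR61 was at 13.9, 8.44 and 25.2 FPKM in KYSE180 controls and 30.8, 31.7 and 30.1 with overexpression. The overexpressing libraries lay close together and above every control, the controls spread widely, and the difference did not pass (log2 change 1.05, SE 0.32, adjusted p = 0.0763; it passed in 3 of 16 alternatives). With 1 library left out the change ran from 0.69 to 1.43, lowest without control replicate 2 (0.69, adjusted p = 0.0821). CTGF was at 1.67, 3.91 and 5.77 and 5.47, 8.13 and 5.87 FPKM, with overlap (log2 change 0.73, SE 0.32, adjusted p = 0.173). Its change ran from 0.36 to 1.03 with 1 library left out, lowest without control replicate 1, the library with the lowest CTGF, and highest without control replicate 3. ANKRD1, at 0.118, 0.218 and 0.103 and 0.125, 0.197 and 0.274 FPKM, had too few reads to be tested in this line.

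YAP1 was at 31.2, 26.9 and 28.8 FPKM in KYSE180 controls and 32.03, 34.5 and 33.4 with overexpression, without overlap (0.20, 95% interval -0.05 to 0.45, adjusted p = 0.261). TEAD1 was at 5.85, 6.83 and 5.04 and 4.64, 6.95 and 5.92 FPKM (interval -0.41 to 0.37) and TEAD4 at 21.4, 22.6 and 16.2 and 21.97, 19.2 and 19.02 FPKM (interval -0.33 to 0.35), with both groups mixed in each. Of the negative regulators, LATS2 had 3.80, 3.51 and 5.19 and 4.58, 6.25 and 5.12 FPKM (0.29, adjusted p = 0.281), and AMOTL2 had 13.9, 17.4 and 18.4 and 14.2, 17.8 and 17.1 (interval -0.35 to 0.32), again mixed. AJUBA was at 66.8, 69.6 and 54.9 FPKM in controls and lower in every overexpressing library, at 50.9, 45.1 and 39.3 (log2 change -0.49, SE 0.15, adjusted p = 0.0730), short of the threshold. The groups did not overlap for 3 genes higher (WWTR1, CYR61, YAP1) and 1 lower (AJUBA), where 17.7% and 17.4% of all tested genes did so (35.1% in either direction). The median change of the 9 was 0.20, against 0.00 over all genes tested.

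Leaving out 1 KYSE180 library at a time gave 0 to 2 of the 9 genes higher and 0 to 1 lower. Over these fits, 19 to 2335 of all 15944 genes tested were called. Without control replicate 3, the library with the highest CYR61 and CTGF of its group, 2 were higher and 1 lower. These were WWTR1 and CYR61 (change 1.43), and AJUBA (-0.59), in the fit that called 2335 genes. Squamous markers summed to 2122, 3622 and 2046 FPKM in control replicates 1 to 3 and 4053 to 4684 with overexpression. KRT14 alone ran from 274 to 1412 FPKM in these controls. None of the 9 markers was called by limma-trend, and 5 were higher at an unadjusted p under 0.05, against 14.9% of all genes tested. By limma-voom 1 marker was called higher, where 1831 of all 15944 genes were called in either direction. Their part in these values, and that of the higher mitochondrial share, was not tested.

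The changes with overexpression and with the hairpin shared their sign for most of these genes. Of the 9 tested in both lines, 6 had the same sign, 5 higher (CYR61, CTGF, WWTR1, LATS2, YAP1) and 1 lower (AJUBA); of all 13377 genes tested in both, 8743 (65.4%) did, so the share among the 9 (66.7%) was near that of all genes. The comparisons share no library. WWTR1 was the 1 gene of the 9 called higher in both, against 215 of all 13377 genes. None of the 9 was called lower in both, against 195 of all genes. A test of the difference between the changes, KYSE180 minus KYSE150, called none of the 10 by limma-trend or by limma-voom, where 2.87% of 17088 genes were called higher and 2.7% lower (5.57% in either direction). At an unadjusted p under 0.05 there were 2, against 22.2% of all genes tested: AMOTL2 (-0.57, adjusted p = 0.0835) and TEAD4 (0.47, adjusted p = 0.146). Without shCDCA7 replicate 2 AMOTL2 passed (-0.65, adjusted p = 0.0384), in a fit that called 1557 genes. For CYR61 the difference was -0.66 with a 95% interval of -1.54 to 0.23, for CTGF -0.01 (-0.90 to 0.87) and for WWTR1 0.08 (-0.28 to 0.43), intervals that leave room for unequal changes. With upper-quartile scaling, which shifted the median of all genes by -0.12 here, 1 gene was called lower (AMOTL2, -0.72), and the higher share of calls went from 51.6% to 38.2%; with total reads it went to 62.3%.

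The TEAD family was made up differently in the native lines, with more TEAD1 in KYSE150 and more TEAD2 and TEAD3 in KYSE180. The summed level was 66.5 ± 0.530 FPKM in KYSE150 controls, 67.2 ± 2.69 with the hairpin, 58.1 ± 3.07 in KYSE180 controls and 63.2 ± 2.41 with overexpression (SD, n = 3). TEAD1 made up 29.9% ± 1.21 of it in KYSE150 controls and 10.1% ± 1.03 in KYSE180 controls. TEAD2, the embryonically enriched paralogue, made up 15.6% ± 0.567 and 29.9% ± 0.612, and TEAD3, another paralogue, 15.3% ± 0.885 and 25.5% ± 4.60. The control ranges of these 3 shares did not overlap between the lines. Nor did that of TEAD4, at 38.99% to 39.47% in KYSE150 and 29.63% to 37.14% in KYSE180. By FPKM, 71.3% of all genes tested did not overlap between these groups. With the hairpin, the share of TEAD1 was 40.3% ± 10.8 (at most 52.8%, in replicate 2) and that of TEAD4 went from 39.2% ± 0.238 to 27.9% ± 3.49. In shCDCA7 replicates 1 and 3 alone, TEAD1 held 34.6% and 33.5% and TEAD4 30.4% and 29.5%. With overexpression TEAD1 held 9.30% ± 2.19 and TEAD4 31.8% ± 1.92, against 34.4% ± 4.15 in controls. These shares are descriptions without a test of their own.

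**Figure D4:**
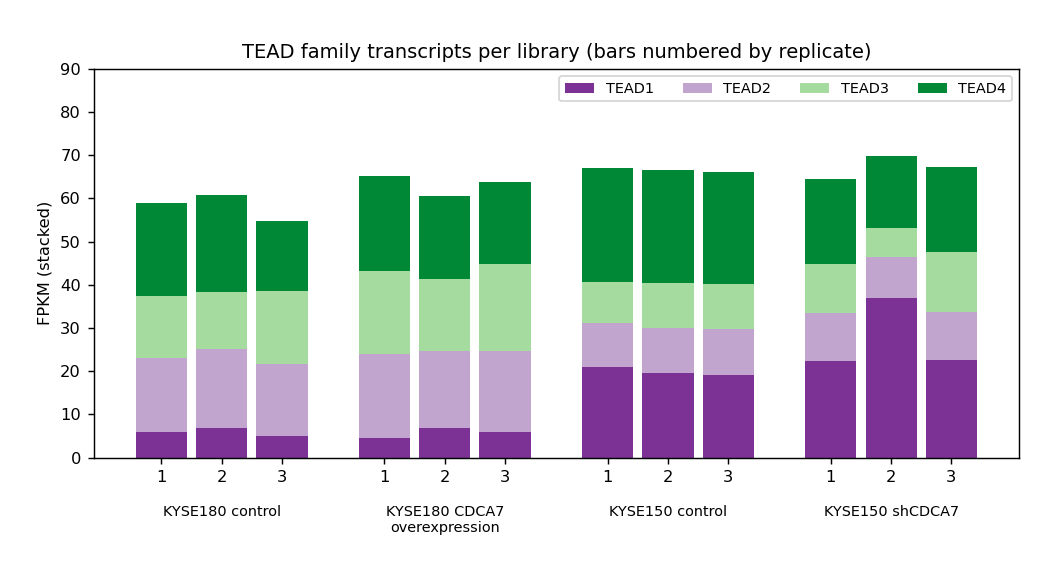
FPKM of TEAD1, TEAD2, TEAD3 and TEAD4 stacked in 1 bar for each of the 12 libraries, numbered by replicate within each group. TEAD1, at the base, fills 29.01% to 31.3% of the bar in KYSE150 controls and 9.20% to 11.2% in KYSE180 controls, and most, 52.8%, in shCDCA7 replicate 2.

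The ratio of YAP1 to WWTR1 was lower in the manipulated libraries of both lines. In both, WWTR1 was called higher and YAP1 was not called. The ratio of YAP1 to WWTR1 FPKM was 5.40 ± 0.319 in KYSE150 controls and 3.99 ± 0.877 with the hairpin, and 2.41 ± 0.277 in KYSE180 controls and 1.81 ± 0.0235 with overexpression (SD, n = 3). Within each line the ratios did not overlap, and shCDCA7 replicates 1 and 3 alone had 4.66 and 4.32. The ratio of CYR61 to CTGF was 44.1 ± 6.50 and 82.4 ± 3.78 in KYSE150, without overlap (78.2 and 85.5 in shCDCA7 replicates 1 and 3), and 4.95 ± 3.12 and 4.88 ± 0.893 in KYSE180, with overlap. No test was made of these ratios, which are free of the scaling between libraries. How often the ratios of other gene pairs do not overlap was not counted. By FPKM, 35.1% of all genes tested in KYSE180 and 47.8% in KYSE150 did not overlap between groups.

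Among 19 other Hippo kinases and upstream regulators, such as STK3, STK4, LATS1 and NF2, none was called in KYSE180 by limma-trend. At an unadjusted p under 0.05, 4 were higher and 1 lower, against 14.9% and 15.1% of all genes tested (30% in either direction). By limma-voom 1 was called higher and 1 lower, where 1831 of all 15944 genes tested were called. The median change was 0.07. In KYSE150, 3 of the 18 tested rose and 2 fell, against 10% and 9.86% of all genes tested, with a median of 0.15. FRMD6, a FERM domain protein upstream of the kinases, went from 9.12, 8.71 and 8.82 to 13.7, 13.7 and 12.5 FPKM (0.53, adjusted p = 0.0114). PTPN14, a phosphatase that binds YAP1, went from 29.1, 28.02 and 27.4 to 37.1, 47.7 and 38.02 (0.52, adjusted p = 0.0271), and MOB1B, a LATS activator, from 3.77, 4.25 and 4.54 to 5.72, 6.67 and 5.97 (0.46, adjusted p = 0.0360). TAOK2, a kinase that acts on the MST kinases, fell from 7.26, 7.39 and 7.01 to 5.07, 2.71 and 4.19 FPKM (-0.75, adjusted p = 0.0377), and NF2, the scaffold merlin, from 7.71, 7.41 and 7.84 to 5.53, 5.61 and 5.81 (-0.38, adjusted p = 0.0323). No library of either group overlapped with the other group for any of these 5, which were named because they were called. Of the 18 tested, 7 were higher and 3 lower without overlap, against 25.3% and 22.5% of all tested genes (47.8% in either direction). The calls of the 5 held in 7 to 10 of 16 alternatives. Without shCDCA7 replicate 2 all 5 were called, at 0.51 for FRMD6, 0.40 for PTPN14, 0.40 for MOB1B, -0.55 for TAOK2 and -0.38 for NF2. Of the 18, 6 then passed as higher and 4 as lower, and the median change was -0.02. These are 33.3% and 22.2%, against 29.5% and 26.1% of all genes tested. Of TEAD2, TEAD3 and the cofactors VGLL1, VGLL3 and VGLL4, none of the 4 tested in KYSE180 or the 3 tested in KYSE150 was called by limma-trend or limma-voom, and 1 in each line was higher at an unadjusted p under 0.05, against 14.9% of all genes tested in KYSE180 and 19% in KYSE150. Without shCDCA7 replicate 2, 2 of the 3 were called higher, against 29.5% of all genes tested. These were TEAD3 (0.27) and VGLL4 (0.43), named after their values were seen.

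Of 16 other genes known as YAP-TEAD targets, 15 were tested in KYSE180, with 3 higher and 2 lower, where 4.65% and 4.43% of all genes tested were called. In KYSE150 14 were tested, with 3 higher and 3 lower, where 10% and 9.86% were called. The median changes were -0.09 in KYSE180 and 0.01 in KYSE150. Of the 13 targets tested in both lines, 9 (69.2%) had the same sign, against 65.4% of all 13377 genes. In both lines 2 were called higher and 1 lower, against 215 and 195 of all genes. GADD45A, a stress-induced growth arrest gene, was higher in both lines, at 5.68, 12.1 and 8.92 FPKM in KYSE180 controls and 23.5, 16.3 and 18.05 with overexpression (1.07, adjusted p = 0.0398). In KYSE150 it went from 17.1, 14.99 and 16.05 to 76.9, 28.01 and 76.9 FPKM (1.72, adjusted p = 0.0264), least in replicate 2. NUAK2, an AMPK-related kinase, was higher in both, from 10.1, 10.2 and 10.9 to 18.2, 17.6 and 18.9 FPKM in KYSE180 (0.75, adjusted p = 0.0134) and from 9.32, 10.1 and 10.5 to 30.1, 21.9 and 32.7 in KYSE150 (1.40, adjusted p = 0.00452). FJX1, a secreted four-jointed homologue, fell in both, from 13.2, 10.7 and 10.1 to 5.73, 5.44 and 5.38 FPKM in KYSE180 (-0.91, adjusted p = 0.0149) and from 65.4, 67.1 and 66.00 to 36.3, 19.3 and 32.8 in KYSE150 (-1.19, adjusted p = 0.0167).

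Other called targets passed the test in 1 line each. NT5E, the surface nucleotidase CD73, fell in KYSE180 from 2.16, 1.95 and 1.25 to 0.136, 0.382 and 0.144 FPKM (-1.18, adjusted p = 0.0114), and RBMS3, an RNA-binding protein, rose from 0.365, 0.379 and 0.443 to 0.765, 0.834 and 0.885 (0.39, adjusted p = 0.0308). In KYSE150, TGFB2, a TGF-β ligand, rose from 11.1, 10.7 and 10.3 to 19.1, 33.00 and 21.00 FPKM (1.08, adjusted p = 0.0156), highest in replicate 2. F3, tissue factor, fell from 179, 171 and 176 to 106, 99.8 and 115 (-0.71, adjusted p = 0.00595). NUAK2 kept its KYSE150 call in all 16 alternatives and F3 in 15 of 16, whereas GADD45A kept it in 8 of 16 there and 7 of 16 in KYSE180. Without shCDCA7 replicate 2 the KYSE150 changes were 2.20 for GADD45A, 1.56 for NUAK2, 0.85 for TGFB2, -0.92 for FJX1 and -0.66 for F3, all called. Of the 14 targets, 4 then passed as higher and 7 as lower, and the median change was -0.19. These are 28.6% and 50%, against 29.5% and 26.1% of all genes tested.

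**Figure D5:**
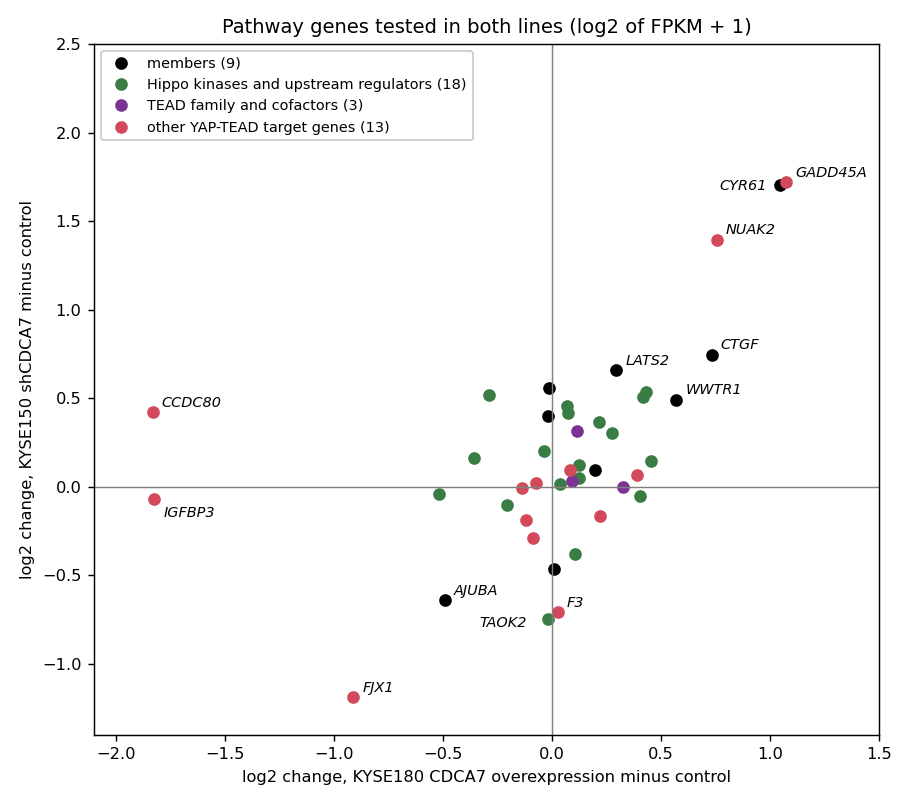
Change in log2(FPKM + 1) with CDCA7 overexpression in KYSE180 (x) against the change with the hairpin in KYSE150 (y), for the 43 pathway genes tested in both lines; colours mark the lists. CYR61, GADD45A and NUAK2 lie at the upper right and FJX1 at the lower left, while CCDC80 and IGFBP3 lie far to the left.

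Over the 12 libraries, the genes whose centred log2(FPKM + 1) lay closest to that of CYR61 were LCP1, SFTA1P and CCND2, with root-mean-square differences of 0.570, 0.633 and 0.642 among 17087 genes. For CTGF they were MTURN (0.244), C12orf75 (0.258) and PPP1R14C (0.269), and for YAP1 POLG2 (0.0667), S100PBP (0.0742) and FAXDC2 (0.0797). The measure takes in the difference between the lines: SFTA1P had a mean of 37.9 FPKM in KYSE150 controls and 0.0871 in KYSE180 controls. FAXDC2 had group means of 0.181 to 0.332 FPKM, where the added 1 flattens changes. These distances carry no test and do not show shared regulation.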

How the data were processed

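RNA was measured in 12 libraries, grouped from the labels. The authors deposited 1 table of FPKM; the unit was read from the values, since FPKM times gene length gives whole multiples of 1 step per library, the worth of 1 read (100% of values, tolerance 0.01 reads). Per the submitters' processing notes, HISAT2 2.0.5 and DESeq2 1.20.0 were used with build mm10, a mouse build, although the gene IDs and positions of all 58735 genes match GENCODE 29 for human GRCh38. The deposited FPKM are scaled by median-of-ratios size factors over all 12 libraries. How reads were counted per gene is not stated in the sources used here. Totals of 16.3 M to 19.6 M reads make 1 read worth 0.0511 to 0.0614 CPM, which covers counting error only.

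Changes were fitted with limma 3.58.1 (R 4.3.3, and version 1.17.8 of data.table), limma-trend on log2(FPKM + 1) with the group as the only term and Benjamini-Hochberg adjustment. The 6 libraries of a line were fitted together; the controls, and the difference between the changes, came from 1 fit of all 12. Tested genes reached 10 reads, scaled to the median library size, in 3 or more libraries of the fit, and 15 reads over all of them. limma-voom used the recovered reads; no count model was the main test because the values are normalised. The fits were also run on simulated counts with the same small spread set for every gene and no library that stood apart. That run does not show how they perform on libraries as uneven as these. Alternatives were other scalings, filters, an added 0.1, a threshold of 0.01, each library left out in turn, blocking on the replicate number, and fitting all 12 libraries jointly.

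All 10 genes were named in every comparison, with CDCA7 as the label check, up to 3 called genes per direction and line from each other list (1 of them is not reported here), and the 3 genes most like CYR61, CTGF and YAP1. Other genes in the closing observations were chosen after their values were seen. The 10 genes and the lists were chosen with earlier results of these data known. Promoter sequences are RefSeq's (GRCh38.p14), matched by symbol.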

Additional observations from a re-analysis of the deposited data

Results flagged for a closer look

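A test of the difference between the changes in KYSE180 and KYSE150 passed the threshold for 3 genes of those described. For CDCA7 itself the difference was 2.79 on the log2 scale (adjusted p = 8.00e-05), as it was raised in 1 line and lowered in the other, and it passed in all 20 alternatives. For NT5E the difference was -1.10 (adjusted p = 0.00456), passed in 18 of 19 alternatives. Over these it ran from -1.96 to -0.0128, and limma-voom on the recovered reads, which gave -0.0128 (adjusted p = 0.995), was the 1 that did not call it. In KYSE150 it was at 0.0516, 0.0340 and 0.0882 FPKM in controls and listed at 0 in all 3 shCDCA7 libraries, too low to be tested there. For TGFB2 the difference was -1.13 (adjusted p = 0.0261), passed in 9 of 20 alternatives; in KYSE180 it was at 0.0678, 0.0731 and 0.276 FPKM in controls and 0.0600, 0.130 and 0.105 with overexpression, and was not tested there.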

How the results depend on the processing

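Over all alternatives, the changes of the 10 genes kept direction and side of the threshold in 552 cases, lost the call in 47, gained it in 17 and changed sign in 25. The cause was not tested. The 552 also count changes that were not called in the main fits and stayed so. Only called changes could lose a call: in KYSE150, CTGF and WWTR1 each lost it in 10 of 16 alternatives. In KYSE180, where 1447 genes were called, with 1 of the 9 genes higher and none lower, there were 62 genes at an adjusted p under 0.01, 3 without a filter, 2893 in a fit of all 12 libraries and 603 with the replicate block. Of the 9, 0 were higher at 0.01, without a filter or with the block, 2 with limma-voom or all 12 libraries, and 1 was lower with total reads. Of all genes, limma-voom called 1831 and total reads 1732. In KYSE150 (2854 genes, 5 of 10 higher, 1 lower) there were 785 genes at 0.01, 1554 without a filter and 1001 with the block; 2 of the 10 were higher at 0.01, with total reads or with the block, 3 without a filter, 0 were lower at 0.01 or with the block, and 2 with total reads or all 12 libraries. Total reads gave 3792 genes in KYSE150 and all 12 libraries 3127. For the controls (9905) the block gave 6449 genes. For the difference of the changes (952) there were 189 genes at 0.01, 530 without a filter, 612 with a mean of at least 1 FPKM, 476 with limma-voom and 211 with the block, and 1 of the 10 lower with upper-quartile scaling. Leaving out 1 library at a time gave 19 to 2335 genes in KYSE180 (0 to 2 of the 9 higher, 0 to 1 lower), 545 to 7982 in KYSE150 (1 to 8 of the 10 higher, 0 to 2 lower) and 289 to 1711 for the difference (0 to 1 lower). The sign turned in KYSE180 for TEAD4 with total reads (-0.11) and AMOTL2 with upper-quartile scaling (0.00546), and over left-out libraries the ranges were -0.14 to 0.11 for TEAD1, -0.13 to 0.0968 for TEAD4 and -0.13 to 0.0788 for AMOTL2. In KYSE150 it turned for YAP1 with total reads (-0.16). For the difference of the changes it turned for CTGF with total reads (0.13), an added 0.1 (0.12) and limma-voom (0.10), and with upper-quartile scaling for YAP1 (-0.0422) and WWTR1 (-0.0631); over left-out libraries the ranges were -0.0109 to 0.20 for WWTR1, -0.39 to 0.29 for CTGF and -0.0759 to 0.27 for AJUBA. Libraries with the same replicate number did not deviate together within a line (correlations -0.08 to 0.05), so the block pairs libraries that share only a number. At this depth ANKRD1 could not be tested in KYSE180.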

Other observations

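Known YAP-TEAD targets outside the 10 genes also differed between the native lines, and in both directions: 5 of the 16 were called higher and 8 lower in KYSE180, where 33.4% and 24.6% of all genes tested were called (58% in either direction). AXL, a receptor tyrosine kinase, was at 112, 112 and 107 FPKM in KYSE150 controls and 1.82, 2.06 and 2.71 in KYSE180 controls (log2 difference -5.13, adjusted p = 2.20e-10), a difference of similar size to that of CYR61. F3 was at 179, 171 and 176 and 8.87, 24.7 and 15.8 FPKM (-3.44, adjusted p = 4.08e-07). FOXF2, a forkhead factor, lay the other way, listed at 0 in all 3 KYSE150 controls and at 16.3, 8.34 and 14.01 FPKM in KYSE180 controls.

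The KYSE180 controls were not alike in some targets. IGFBP3, a secreted binding protein of insulin-like growth factors, was at 36.3, 2.19 and 29.7 FPKM in control replicates 1 to 3, and CCDC80, an extracellular matrix protein, at 16.03, 1.95 and 13.7. Replicate 2 was the low library for both, and it was also lowest for CYR61 (8.44 FPKM). Other targets differed: replicate 2 was highest for F3 (24.7), and CTGF was lowest in replicate 1 (1.67). With overexpression CYR61 was at 30.8, 31.7 and 30.1, not near control replicate 2. With overexpression, IGFBP3 was at 2.88, 2.97 and 4.35 and CCDC80 at 1.41, 1.45 and 1.77 FPKM, near the level of control replicate 2, and neither passed the test in KYSE180 (adjusted p = 0.183 and 0.0868).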
